A study of Rattus norvegicus with 8 samples.

Results

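The erythroid genes followed here are those of the red cell and its precursors that the arrays of lavender oil (LO)-treated rats carry by RefSeq identifier. They comprise *Rhag* (NM_023022), *Aqp3* (NM_031703), *Alas2* (NM_013197), alpha globin (NM_013096), beta globin (NM_033234), *Epor* (NM_017002), *Gata1* (NM_012764), *Slc4a1* (NM_012651) and *Sptb* (NM_212522), and the probes were found by matching the identifiers on the arrays to these 9 transcripts. Of the 9 genes, 8 were present with 10 of the 40979 probes, since *Rhag* and *Slc4a1* had 2 probes each and the alpha globin identifier had none. The genes were chosen by their LO/control ratios in the spleen, so those ratios are given below as a description without a test.

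The study dosed male rats, 7 weeks old, 6 rats per group, directly into the stomach once a day for 13 days. The control group received 10% ethanol and the LO group received 5 mg/kg of LO in 10% ethanol, so that the diluent was common to both groups. The tissues were taken on day 14. The rats are F334 (Fischer) by the growth protocol and the methods but Wistar by the strain label, and the labels do not settle this. Total RNA of whole spleen, small intestine and liver was pooled within each group, and the control and LO pools were hybridized together on arrays with 2 dyes. LO carried Cy5 on array 1 and Cy3 on array 2 of each pair. The spleen and the small intestine had 2 arrays each, and the liver had 4, from 2 pairs of pools (pool 1 and pool 2) whose difference is not given in the sources used here.

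Each array held 43379 non-control features, with both channels well above background for 44.3% to 64.7% of them and none saturated. The arrays of a pair measured the same RNA pools, so that an SD between them is technical and shows no variation between rats. After the ratios were turned to LO over control, the arrays of a pair correlated negatively over all tested probes, with r = -0.60 in the spleen, -0.63 in the small intestine and -0.83 in the liver (over the mean of both pools). The dyes are stated in the labels, so the direction was kept. The labelled tissues carried their own markers. For a gene that passed the filter on dim probes only through a tissue compared, the filter itself favoured a difference. Such a gene is left out of the counts of levels here and below. Of the other genes, 3 of 3 T cell and 3 of 3 B cell genes were higher in control spleen than in control liver (limma, adjusted p under 0.05). By the same test 10 of 10 hepatocyte genes were lower than in control liver, and 5 of 5 enterocyte genes lower than in control small intestine. Of all probes that passed the filter without either tissue, 18.3% were higher and 13.0% lower in spleen than in liver. Against small intestine 5.76% of such probes were lower in spleen.

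Red cells form from precursors that take up iron, make haem and globin in matched amounts, and assemble a membrane skeleton that lets the cell deform. Erythropoietin acts through its receptor to keep the precursors alive, and the transcription factor GATA1, together with KLF factors, switches on the genes of haem, globin and membrane. In the rat the adult spleen is a site of blood formation as well as of the removal of old red cells. Erythroid transcripts in a whole tissue can come from precursors or from reticulocytes in its blood. In such bulk samples a change in the number of erythroid cells and a change in RNA per cell cannot be told apart.

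Promoter sequences are shown because several of the 8 genes are textbook targets of GATA1. A link of the promoters to the LO/control ratios was not tested. Of the 8 genes on the arrays, 7 had a window in the RefSeq promoter table (build GRCr8, 300 bases a window, 250 of them before the start), and *Slc4a1* had none there. An exact AGATAA or TGATAA, the letters of the GATA motif, lay on either strand in 4 of the 7 windows (*Rhag*, *Alas2*, *Epor* and *Sptb*), and in 18.9% of all 33465 windows. CACCC, the letters of the KLF motif, lay in 6 of the 7 windows, all but that of *Alas2*, and in 54.9% of all windows. The starts used for the *Alas2* and *Gata1* windows lay 4800 and 8346 bases inside the annotated genes, so they are inner starts. The 250 bases before the start of 4 genes follow, 5′ to 3′ on the strand of the gene, with matches to either motif on either strand in capitals. They cover a membrane channel, a membrane skeleton protein, a receptor and a globin.

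*Rhag* and *Sptb* held a GATA match at -31 and at -57 from the start, counted at its first base.
*Rhag*, chr9:27594391-27594640, minus strand: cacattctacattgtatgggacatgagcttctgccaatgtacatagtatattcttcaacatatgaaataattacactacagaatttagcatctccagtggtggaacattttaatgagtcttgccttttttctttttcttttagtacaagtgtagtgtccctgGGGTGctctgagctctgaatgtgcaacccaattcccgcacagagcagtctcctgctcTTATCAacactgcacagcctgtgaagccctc
*Sptb*, chr6:101170279-101170528, minus strand: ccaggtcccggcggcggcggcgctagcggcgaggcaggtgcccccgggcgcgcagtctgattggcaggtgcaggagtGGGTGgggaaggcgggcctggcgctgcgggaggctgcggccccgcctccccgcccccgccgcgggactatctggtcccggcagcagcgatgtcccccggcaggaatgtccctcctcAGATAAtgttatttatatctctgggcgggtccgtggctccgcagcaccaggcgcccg
*Epor* held 1 GATA match and 2 CACCC matches, and the beta globin window held 1 CACCC match and no GATA match.
*Epor*, chr8:28770323-28770572, minus strand: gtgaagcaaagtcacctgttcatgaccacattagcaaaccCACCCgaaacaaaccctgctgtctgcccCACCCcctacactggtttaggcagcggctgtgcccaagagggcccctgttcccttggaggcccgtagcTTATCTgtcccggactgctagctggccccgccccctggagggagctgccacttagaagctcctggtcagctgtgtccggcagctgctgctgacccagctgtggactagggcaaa
beta globin (*Hbb*), chr1:167663722-167663971, minus strand: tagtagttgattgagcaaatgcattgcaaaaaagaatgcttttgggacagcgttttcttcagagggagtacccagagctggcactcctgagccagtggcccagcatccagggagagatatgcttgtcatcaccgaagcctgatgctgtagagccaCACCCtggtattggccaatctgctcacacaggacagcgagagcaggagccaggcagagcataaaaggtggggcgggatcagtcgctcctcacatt
A match is a description of letters and not a bound site, and a window without a match leaves the rest of the gene unsearched.

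In the spleen, the LO/control ratio of the 8 genes was above 1 on both arrays, for 10 of 10 probes. Over the 22798 tested probes well above background in both channels of both spleen arrays, 15.7% were above 1 on both arrays and 18.7% below 1 on both. The median of the 8 genes was 0.38 on array 1 and 0.35 on array 2 on the log2 scale, against a median of -0.01 (SD 0.10 between probes) over all bright probes for the mean of the arrays. By the cut-offs of the methods, an LO/control ratio past 1.5 with LO in Cy5 and a Cy5/Cy3 ratio of at most 0.75 with LO in Cy3, 2 of the 10 probes were up on both arrays (1 of *Rhag* and that of *Aqp3*), against 0.399% of all features. These ratios chose the genes, so nothing is read from either excess.

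The membrane channels had the highest ratios. *Rhag* encodes the Rh-associated glycoprotein, which carries the Rh complex in the red cell membrane. Its brighter probe had a signal of 3052 in control and 5520 in LO on array 1, and of 2901 and 3787 on array 2, in arbitrary intensity units. The ratio was 1.81 on array 1 and 1.31 on array 2. The second *Rhag* probe lay closer together, with signals of 999.8 and 1550 on array 1 and 881 and 1298 on array 2, and ratios of 1.55 and 1.47. On both arrays and with both probes the LO pool was the higher one. The mean log2 ratio was 0.62 ± 0.33 (SD, n = 2 arrays) for the first probe and 0.60 ± 0.05 for the second.

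*Aqp3* encodes a channel for water and glycerol that red cells share with several epithelia. Its signal was 809 in control and 1273 in LO on array 1, and 700.3 and 1085 on array 2. The ratios of 1.57 and 1.55 were the closest pair of the 8 genes, with a mean log2 ratio of 0.64 ± 0.01 (SD, n = 2 arrays), and the LO pool was above the control pool on both.

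*Slc4a1* encodes band 3, the anion exchanger that anchors the skeleton to the red cell membrane. On its brighter probe the signal was 21450 in control and 23648 in LO on array 1, and 14867 and 22018 on array 2, giving ratios of 1.102 and 1.48. The dimmer probe gave the opposite order of arrays, 1.28 and 1.0999. Both probes were above 1 on both arrays, but the size differed between the arrays by more than for the other genes except *Rhag*. *Sptb*, the beta spectrin of the red cell skeleton, had signals of 379.9 and 503 on array 1 and 362 and 459 on array 2. Its ratios were 1.32 and 1.27, both with LO above control.

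The genes of haem and globin had smaller ratios. *Alas2*, the erythroid form of the enzyme that starts haem synthesis, had a signal of 40642 in control and 48965 in LO on array 1 and 37097 and 42259 on array 2. The ratios were 1.20 and 1.14. Beta globin (*Hbb*) had signals of 62109 and 79428 on array 1 and 53642 and 62830 on array 2, and ratios of 1.28 and 1.17. For both genes the LO pool was higher on both arrays, by a mean log2 ratio of 0.23 ± 0.06 and 0.29 ± 0.09 (SD, n = 2 arrays). Globin transcripts are close in sequence, so a globin probe may read more than 1 gene.

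The regulators were also above 1 on both arrays. *Gata1*, the transcription factor named above, had signals of 507 in control and 712 in LO on array 1 and 475 and 605 on array 2, with ratios of 1.40 and 1.27. *Epor*, the receptor of erythropoietin, had 138 and 155 on array 1 and 128 and 139 on array 2, with ratios of 1.12 and 1.09. The *Epor* ratio was the smallest of the 8 genes, with a mean log2 ratio of 0.15 ± 0.03 (SD, n = 2 arrays). Summed over the 8 genes the signal was 1.24 times higher in LO on array 1 and 1.21 times on array 2.

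**Figure D1:**
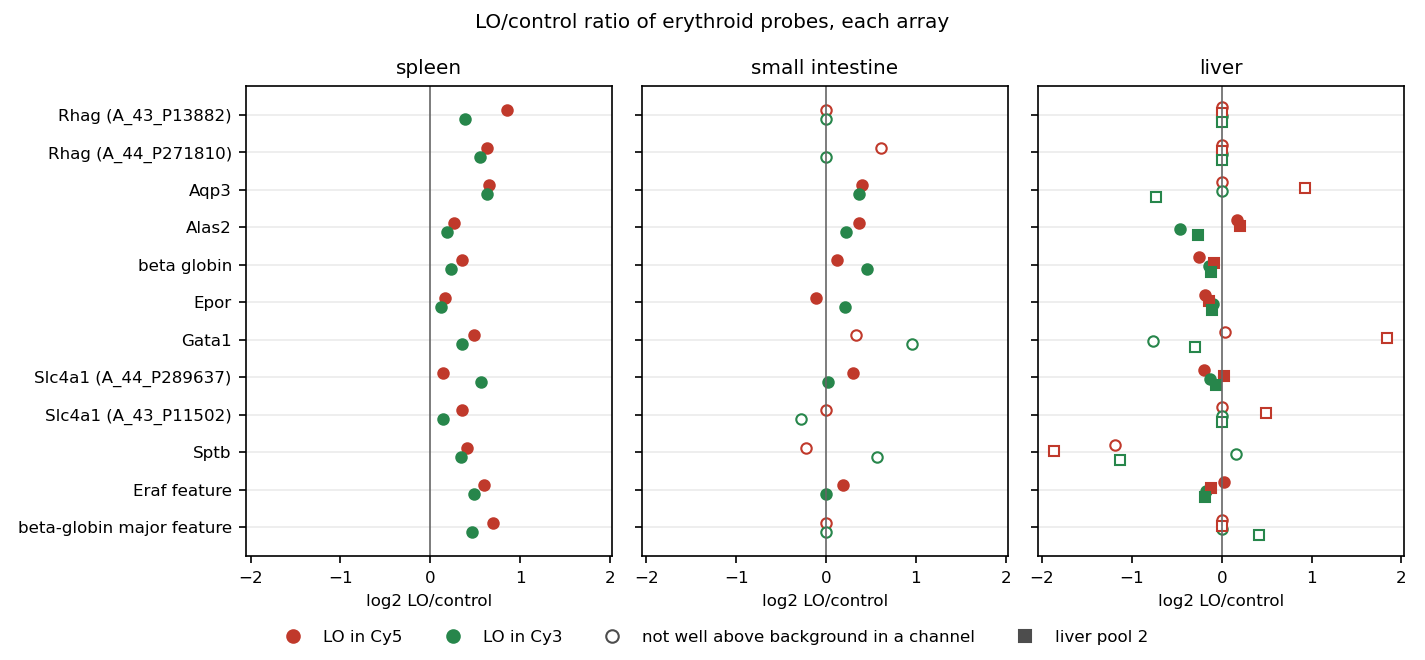
Log2 LO/control ratio of each erythroid probe (rows) on each array of the 3 tissues (panels), with a point per array coloured by the dye of LO, squares for liver pool 2 and open points where a channel was not well above background. The filled spleen points lie to the right of 0 for the 10 probes of the 8 genes, while the filled liver points of beta globin and *Epor* lie to the left of 0.

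Features outside the set by identifier bore on the globins. A feature listed under the name Eraf, the chaperone of free alpha globin, had signals of 57056 in control and 86254 in LO on spleen array 1 and 53165 and 74765 on array 2, with ratios of 1.51 and 1.41. A further beta-globin major feature had 2832 and 4606 on array 1 and 2572 and 3551 on array 2, with ratios of 1.63 and 1.38. Both were higher in LO on both arrays. The *Hba-a3* and *Hbb-b1* globin probes did not keep 1 direction. *Hba-a3* had a ratio of 2.25 on array 1, with signals of 122122 in control and 275078 in LO, and of 0.67 on array 2, with 203557 and 136546. *Hbb-b1* had ratios of 1.36 and 0.99. For *Hba-a3* the Cy5 channel was the brighter one on both arrays, whichever pool it held.

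A wider list of 77 erythroid genes, made with earlier results of these data known, had 42 genes on the arrays, 39 of them well above background in both channels of both spleen arrays. Of these 39, LO/control was above 1 on both arrays for 28, below 1 on both for 1 and split for 10. Their median log2 ratio was 0.21. Of all bright probes in the spleen, 15.7% were above 1 on both arrays and 18.7% below. The same shares stand beside the counts by role that follow, several of which rest on few genes. With normexp background correction 25 of the 39 were above 1 on both arrays. Summed over the 42 genes, the signal in LO was 1.53 times that of control on array 1 and 0.92 times on array 2, and summed over the globins 1.81 and 0.78 times, so the sums did not keep 1 direction. These counts describe the same arrays as the ratios that chose the genes above.

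Of 8 haem synthesis and mitochondrial iron genes, 7 were above 1 on both arrays and 1 split, with a median log2 ratio of 0.37. *Alad*, the second enzyme of the pathway, had ratios of 1.21 and 1.64. Of 8 membrane and skeleton genes 7 were above 1 on both arrays and 1 split, with a median of 0.28. *Rhd*, the Rh protein that RHAG carries, had ratios of 1.33 and 1.40. Haem genes tended to be higher on array 2, whereas the ratios of *Rhd* were close on both arrays.

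Of 9 red cell enzyme and maturation genes 8 were above 1 on both arrays and 1 split, with a median log2 ratio of 0.23. *Hemgn*, a nuclear protein of erythroid precursors, had ratios of 1.44 and 1.40, and *Pklr*, the pyruvate kinase of red cells and liver, had 1.52 and 1.24 at signals between 86.2 and 137. The remaining roles were more mixed. Of 5 globin genes 2 were above 1 on both arrays, 1 was below on both (*Hbe1*, an embryonic globin, with ratios of 0.97 and 0.89, and its second probe also below 1) and 2 split. Of 4 transcription factors 2 were above on both arrays and 2 split (median 0.03), and of 4 signalling genes 1 was above and 3 split (median 0.06). The 1 iron uptake gene measured in the spleen, *Slc11a2*, had ratios of 1.19 and 1.04.

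**Figure D2:**
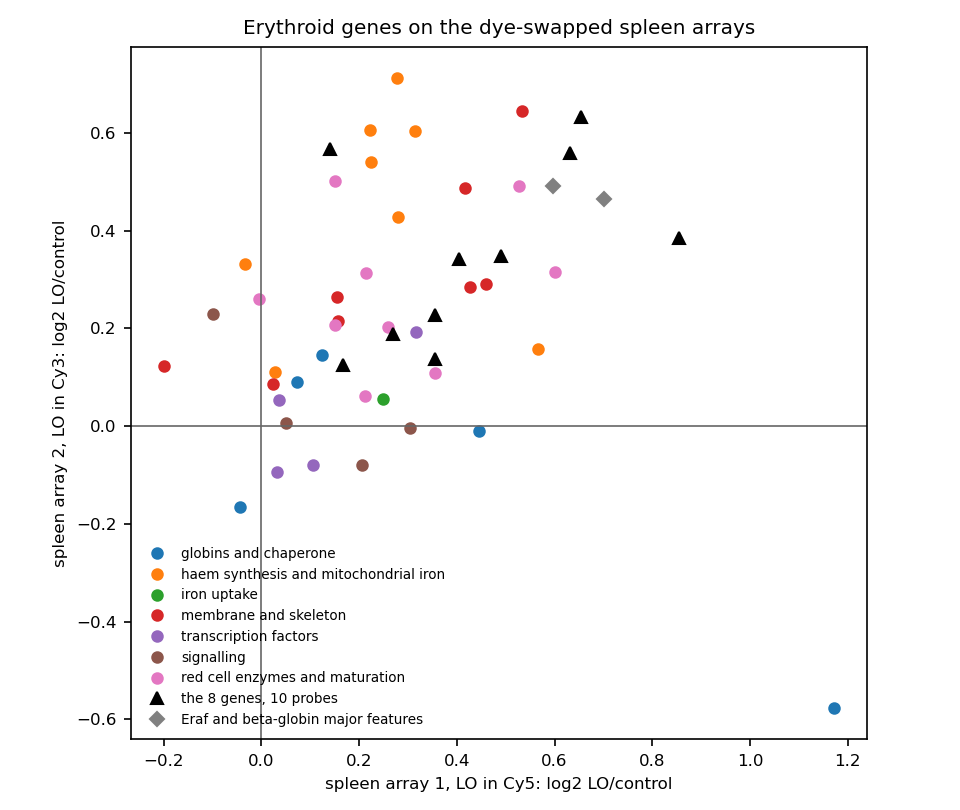
Log2 LO/control on spleen array 1 (x axis, LO in Cy5) against array 2 (y axis, LO in Cy3) for 39 genes of the wider erythroid list (circles, coloured by role), the 10 probes of the 8 genes (triangles) and the Eraf and beta-globin major features (diamonds). The upper right part, above 0 on both arrays, holds 28 of the 39 circles and the 10 triangles, and *Hba-a3*, with ratios of 2.25 and 0.67, lies alone at the lower right.

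Genes of other cells of the spleen were read on the same arrays, counting those well above background in both channels of both arrays. Of all such probes, 15.7% were above 1 on both arrays and 18.7% below. Of 7 T cell genes none was above or below 1 on both arrays, with a median log2 ratio of -0.02 and ratios of 0.93 and 1.05 for *Cd3g* and of 1.01 and 0.93 for *Cd3d*, parts of the T cell receptor complex. Of 3 B cell genes 1 was below 1 on both arrays and 2 split, with 0.94 and 1.05 for *Cd79b* and 0.89 and 1.08 for *Fcer2*. Of 7 genes of red pulp macrophages, the cells that recycle red cell iron, 1 was above 1 on both arrays and 6 split, with 1.11 and 0.95 for *C1qb* and 0.99 and 1.07 for *C1qa*. The median log2 ratio was -0.03 for the B cell and 0.02 for the macrophage list.

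Neutrophil genes lay lower, with 3 of 4 below 1 on both arrays, 1 above and a median of -0.10. *S100a9* had ratios of 0.84 and 0.98, and *S100a8* had 0.94 and 0.98. Of 5 megakaryocyte and platelet genes, a lineage that shares GATA1 with red cells, 3 were above 1 on both arrays and 2 split (median 0.06), with 1.05 and 0.95 for *Pf4* and 1.13 and 1.05 for *Gp1bb*. Mast cell and eosinophil genes gave 1 above and 1 split, with 1.05 and 0.97 for *Prg2* and 1.002 and 1.01 for *Tpsab1*. Smooth muscle and stroma genes gave 2 of 4 above, with 1.08 and 1.03 for *Tagln* and 1.17 and 1.16 for *Col3a1*, and enterocyte genes gave 1 of 3 above, with 1.04 and 0.92 for *Anpep* and 1.01 and 0.89 for *Cdh17*. The summed signal of each of these lists was between 0.88 and 1.11 times that of control on both arrays.

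Proliferation and hepatocyte genes also lay above 1 in the spleen, where 15.7% of all bright probes were above 1 on both arrays. Of 9 proliferation genes 9 were above 1 on both arrays, with a median log2 ratio of 0.25, ratios of 1.11 and 1.09 for *Pcna* and of 1.04 and 1.37 for *Cdk1*, and a summed signal 1.12 times that of control on array 1 and 1.22 times on array 2. In the liver, 5 of the same 9 genes were above 1 on all 4 arrays, against 4.62% of the bright probes there, with a median of 0.36. Of 6 hepatocyte genes bright in the spleen 4 were above 1 on both arrays and 2 split, with a median of 0.52 and ratios of 1.87 and 1.15 for *Alb* and of 1.08 and 0.96 for *Tf*. Of the 12 hepatocyte genes tested, 2 were not well above background on either spleen array in control, and the summed signal was 1.16 times that of control on array 1 and 0.98 times on array 2. The part of either list in the erythroid ratios was not tested.

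**Figure D3:**
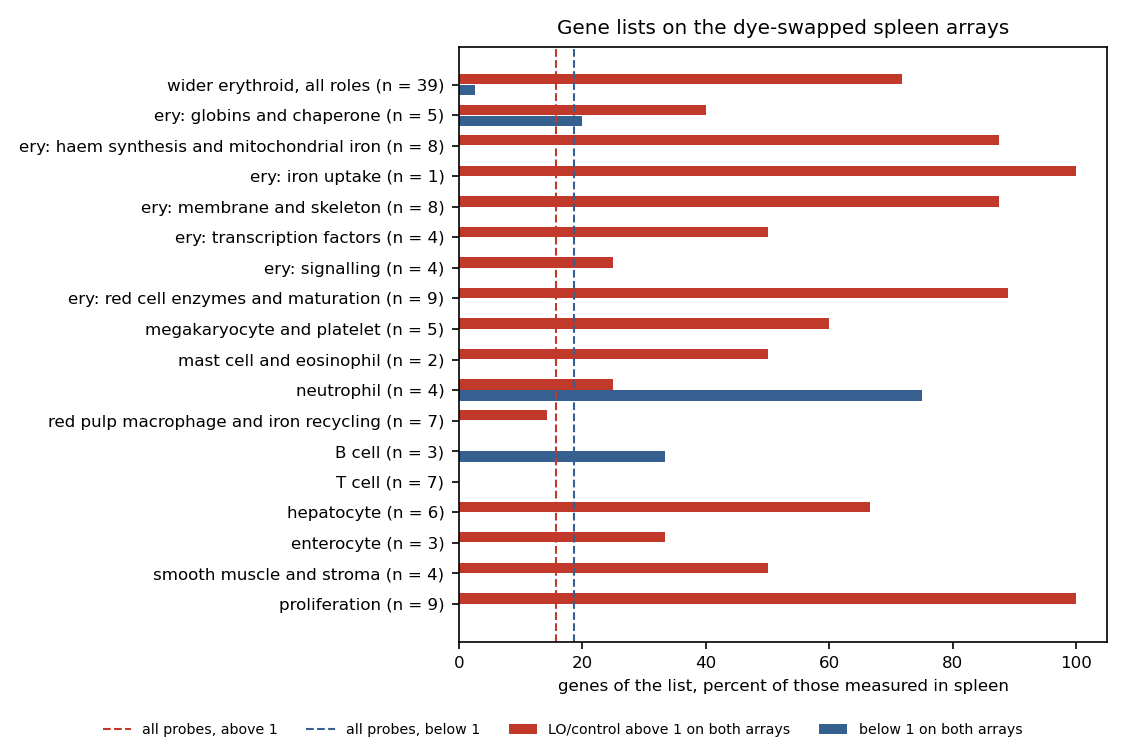
Share of the genes of each list, in percent of those well above background on both spleen arrays (n beside the name), with LO/control above 1 on both arrays (red bars) or below 1 on both (blue bars), with dashed lines at 15.7% and 18.7% for all such probes. Red bars pass their dashed line for every list drawn except the macrophage, B cell and T cell lists, blue bars pass theirs for the neutrophil, B cell and globin lists, and the T cell list has no bar.

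In the small intestine 5 of the 8 genes were well above background in both channels. LO/control exceeded 1 on both arrays for 4 of these 5, *Aqp3*, *Alas2*, beta globin and *Slc4a1*, against 15.6% of the 22772 probes measured in the same way. *Aqp3* had signals of 213 in control and 281 in LO on array 1 and 176 and 228 on array 2, with ratios of 1.32 and 1.29. *Alas2* had 242 and 311 on array 1 and 165 and 192 on array 2, with ratios of 1.29 and 1.16. Both were higher in LO on both arrays, at signals far below those of the spleen for *Alas2*.

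Beta globin had signals of 1204 and 1309 on array 1 and 846 and 1156 on array 2, with ratios of 1.09 and 1.37. *Slc4a1* had ratios of 1.23 and 1.01 on its brighter probe, and *Epor* had 0.93 and 1.16. *Epor* was thus the member whose arrays fell on both sides of 1. *Rhag*, *Gata1* and *Sptb* were not well above background on either array, and no ratio is read for them.

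None of the 8 genes passed in the small intestine (limma, adjusted p = 1 for each), where 0 of 30592 probes passed. *Aqp3* had a log2 ratio of 0.39 ± 0.08 (SE). At an unadjusted p under 0.05, 3.94% of probes passed, among them that of *Aqp3*. The second *Rhag* probe passed too, at signals not well above background. Its ratio is listed as exactly 1 on small intestine array 2 and on all 4 liver arrays, so nothing is read from its p-value. The 95% interval was 1.04 to 1.64 for *Aqp3*, 0.96 to 1.56 for *Alas2*, 0.97 to 1.53 for beta globin, 0.86 to 1.46 for *Slc4a1* and 0.86 to 1.25 for *Epor*, as LO/control ratios. The test had 1 residual degree of freedom, from the liver pools, and assumes that the lone pair of the small intestine varies like them. Over the 22772 probes well above background in both channels of both small intestine arrays, 15.6% were above 1 on both arrays and 13.2% below. Among 31 measured genes of the wider erythroid list 8 were above 1 on both arrays and 4 below, with a median log2 ratio of 0.02. Those with the largest mean were *Hbb-b1* with ratios of 1.23 and 1.18, *Hba-a3* with 1.14 and 1.24, *Rhd* with 1.27 and 1.02 and *Uros* with 1.12 and 1.08, and, below 1, *Stat5b* with 0.93 and 0.90 and *Cat* with 0.90 and 0.95. Both *Hbb-b1* and *Hba-a3*, split in the spleen, lay above 1 on both arrays here.

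In the liver 4 of the 8 genes were well above background on all 4 arrays. Beta globin and *Epor* had LO/control below 1 on all 4 arrays, against 4.16% of the 16314 probes measured in the same way, of which 4.62% were above 1 on all 4, and none of the 4 genes was. For beta globin the ratios were 0.84 and 0.91 (pool 1) and 0.94 and 0.92 (pool 2), at control signals from 3362 to 4196. For *Epor* they were 0.88 and 0.94 (pool 1) and 0.91 and 0.93 (pool 2), at control signals from 55.8 to 86.1. For both genes the LO pool was thus the lower one in both pools and with both dyes, by a mean log2 ratio of -0.15 ± 0.07 and -0.13 ± 0.04 (SD, n = 4 arrays).

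*Slc4a1* was below 1 on 3 of 4 arrays, with ratios of 0.87, 0.91, 1.02 and 0.96. *Alas2* followed the dye and not the pool, with 1.12 and 1.15 where LO carried Cy5 and 0.72 and 0.83 where it carried Cy3. *Rhag*, *Aqp3*, *Gata1* and *Sptb* were not well above background in liver, and both *Rhag* probes carry a ratio of exactly 1 on all 4 arrays, as the software lists it for dim spots.

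None of the 8 genes passed in the liver (limma, adjusted p from 0.83 to 1), where 0 of 30592 probes passed. At an unadjusted p under 0.05, 5.81% of probes passed and none of the members did. The 95% interval was 0.77 to 1.06 for beta globin and 0.80 to 1.04 for *Epor*, as LO/control ratios. Of 31 measured genes of the wider list, 1 was above 1 on all 4 arrays, *Zbtb7a* (ratios 1.099, 1.06, 1.11 and 1.08), and 2 were below, *Hbb-b1* (0.92, 0.88, 0.89 and 0.87) and *Stat5a* (0.91, 0.99, 0.97 and 0.97), with a median log2 ratio of -0.01. Over the 16314 probes measured in the same way, 4.62% were above 1 on all 4 arrays and 4.16% below. The Eraf feature was below 1 on 3 of 4 arrays. The contrast of spleen and liver ratios was not tested.

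The level in control tissue was compared between tissues, a contrast that did not choose the genes, although the control signal of the spleen is also the denominator of its LO/control ratio. *Rhag*, *Gata1* and *Sptb* passed the filter on dim probes only through the spleen, which favoured a difference, so they are given without a test. Of the other 5 genes, 4 were higher in spleen than in liver (limma, adjusted p under 0.05), against 18.3% of the 26713 probes that passed the filter without either tissue, and 3 were higher in spleen than in small intestine, against 4.47% of 27046 such probes. Over all 30592 tested probes the shares were 18.6% and 5.24%, or 32.7% and 11.9% in either direction. By the file headers each tissue lay on its own slide, so slide and tissue cannot be told apart, and the median of all tested probes was 0.10 above liver and 0.13 above small intestine on the log2 scale.

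*Alas2* had normalized log2 control levels of 15.12 and 15.31 in the spleen, 10.44, 10.76, 10.88 and 11.00 in the liver and 7.53 and 7.24 in the small intestine. The 3 tissues did not overlap, and the order was spleen, liver, small intestine. The level in spleen was 21.8-fold that of liver (95% interval 10.2 to 46.7, adjusted p = 0.0037, limma) and 228-fold that of small intestine (adjusted p = 0.0035, limma), and liver was 10.4-fold above small intestine (adjusted p = 0.0088, limma).

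Beta globin and *Slc4a1* kept the same order. Beta globin had log2 levels of 15.84 and 15.97 in spleen, 12.06, 12.07, 11.92 and 11.99 in liver and 9.84 and 9.55 in small intestine. Spleen was 14.9-fold above liver (adjusted p = 0.0046, limma) and 74.0-fold above small intestine (adjusted p = 0.0049, limma), and liver was 4.98-fold above small intestine (adjusted p = 0.021, limma). *Slc4a1* had 14.34 and 14.10 in spleen, 9.15, 9.09, 9.12 and 9.09 in liver and 5.63 and 5.83 in small intestine on its brighter probe. Spleen was 34.5-fold above liver (adjusted p = 0.0023, limma) and 361-fold above small intestine (adjusted p = 0.0033, limma), and liver was 10.4-fold above small intestine (adjusted p = 0.0076, limma). The arrays of the 3 tissues did not overlap for either gene.

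*Rhag*, *Gata1* and *Sptb* were well above background in control spleen and in neither other tissue, so their differences are bounds, set against the lowest signal well above background on each array. *Rhag* had log2 levels of 11.30 and 11.52 in spleen on its brighter probe and was at least 84.3-fold higher than in liver and at least 161-fold higher than in small intestine. *Gata1* had 8.35 and 8.55 and was at least 10.8-fold and 20.7-fold higher. *Sptb* had 7.94 and 8.15 and was at least 8.20-fold and 15.6-fold higher. The dimmer *Slc4a1* probe passed the filter in the same way, with bounds of 8.20-fold and 15.6-fold.

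*Aqp3* had its own order, spleen, small intestine, liver. Its log2 levels were 9.11 and 9.20 in spleen and 7.35 and 7.33 in small intestine, and it was not well above background in liver. Spleen was at least 17.7-fold higher than liver (adjusted p = 0.0018, limma) and small intestine at least 5.03-fold higher than liver (adjusted p = 0.0044, limma). Here and below, a p-value beside a bound tests the difference of the normalized signals as measured, dim ones included, and not the bound. Spleen and small intestine differed by 3.51-fold (95% interval 1.35 to 9.12), which did not pass after adjustment (adjusted p = 0.11, limma). With the 8 arrays fitted singly and the replicate number as a block it passed (adjusted p = 0.0074, limma), but that fit counts repeat arrays of the same pools as replicates, so its spread is technical.

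*Epor* was the member with the flattest levels, at 6.54 and 6.68 in spleen, 6.23, 6.10, 6.74 and 6.60 in liver and 5.48 and 5.58 in small intestine. Spleen and liver overlapped and differed by 1.14-fold (95% interval 0.51 to 2.55, adjusted p = 0.76, limma). Spleen was 2.11-fold (0.83 to 5.35, adjusted p = 0.26, limma) and liver 1.85-fold (0.83 to 4.13, adjusted p = 0.21, limma) above small intestine, and no neighbours in the order passed. With the replicate block on 8 arrays both differences from small intestine passed (adjusted p = 0.020 and 0.019, limma), again on technical spread.

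**Figure D4:**
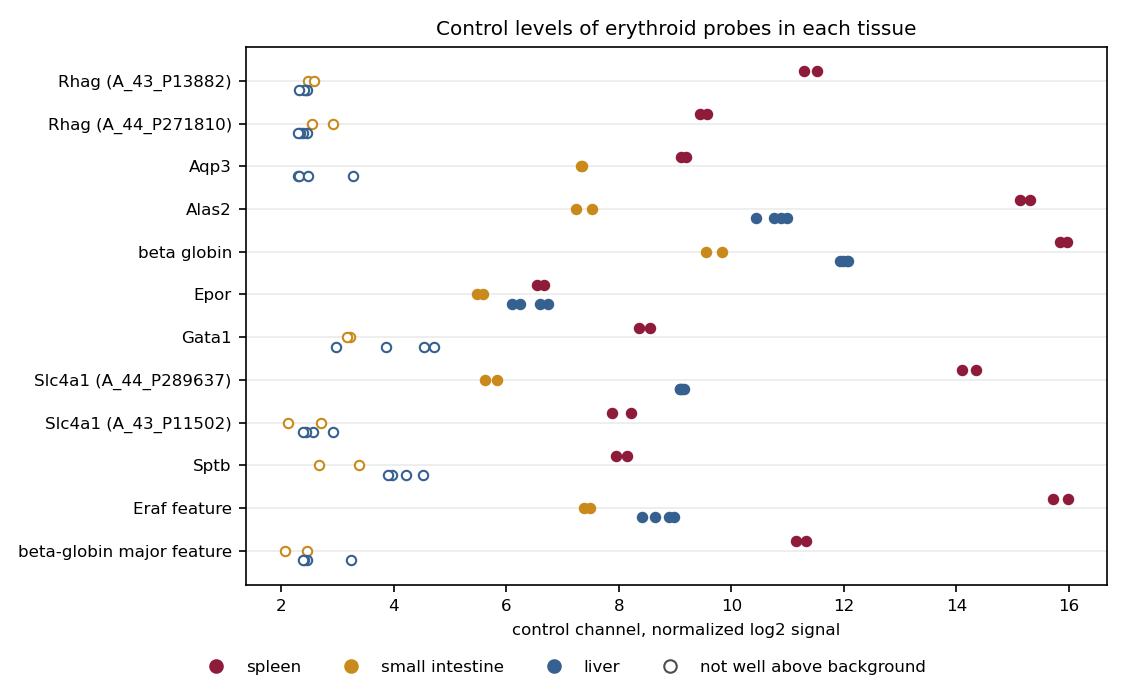
Normalized log2 signal of the control channel (x axis) of each erythroid probe (rows) on each array of spleen, small intestine and liver, with open points where the channel was not well above background. Spleen lies to the right of both other tissues for each probe except that of *Epor*, where spleen and liver overlap at 6.10 to 6.74.

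Between liver and small intestine 4 of the 8 genes passed, *Alas2*, beta globin and *Slc4a1* higher in liver and *Aqp3* lower, where 10.2% of probes were higher and 11.9% lower. Of 41 tested genes of the wider erythroid list, 4 passed the filter only through the spleen, among them *Hemgn*, which was at least 44.4-fold higher than in liver and at least 84.6-fold higher than in small intestine. Of the other 37 genes 16 were higher in spleen than in liver, 6 lower, against 13.0% of such probes, and 15 not called, with a median log2 difference of 0.66. Among the largest were *Rhd* (62.2-fold higher, adjusted p = 0.0027, limma), *Hbe1* (58.5-fold, adjusted p = 0.0018) and *Add2*, the beta adducin of the skeleton (39.5-fold, adjusted p = 0.0022), while *Pklr* was 104-fold lower in spleen (adjusted p = 0.0012). *Pklr* is also the pyruvate kinase of hepatocytes.

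Against small intestine 13 of the 37 genes were higher in spleen, 2 lower, against 5.76% of such probes, and 22 not called, with a median log2 difference of 1.34. *Hbe1* (at least 251-fold, adjusted p = 0.0031, limma), *Add2* (at least 333-fold, adjusted p = 0.0032), *Nfe2*, a transcription factor of the red cell and platelet lineages (at least 51.1-fold, adjusted p = 0.0049), and *Rhd* (159-fold, adjusted p = 0.0054) were among the largest. Liver was above small intestine for 13 of the 41 and below for 4. *Cat*, catalase (21.8-fold, adjusted p = 0.0040, limma), *Add2* (at least 8.43-fold, adjusted p = 0.0078), *Hbe1* (at least 4.29-fold, adjusted p = 0.0088), the iron reductase *Steap3* (8.98-fold, adjusted p = 0.0094) and *Nfe2* (at least 2.87-fold, adjusted p = 0.014) were higher in liver, and the carbonic anhydrase *Car2* was 8.50-fold lower (adjusted p = 0.010).

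The levels of the Eraf and beta-globin major features were read in the same way. The Eraf feature had log2 levels of 15.71 and 15.98 in control spleen and was 138-fold above liver (adjusted p = 0.0012, limma) and 340.5-fold above small intestine (adjusted p = 0.0034, limma). The beta-globin major feature had 11.16 and 11.32 in spleen and was not well above background in either other tissue, with bounds of at least 74.9-fold and 143-fold, given without a test since it passed the filter only through the spleen. The *Hbb* probe was bright in all 3 tissues, so the beta-globin features differed in where they were detected.

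Across the 8 arrays the median log2 LO/control of the 8 genes was 0.38 and 0.35 in spleen, 0.21 and 0.29 in small intestine and -0.10, -0.11, 0.01 and -0.19 in liver. These medians take in genes not well above background, 3 of the 8 in small intestine and 4 in liver. The likeness described next rests on them. Of 4437 named genes well above background on all 8 arrays, the 5 with the most similar pattern were *Cry1*, a clock repressor (r = 0.92), *Phlda1* (r = 0.92), *Cmpk1*, a nucleotide kinase (r = 0.92), *Slc2a1*, the glucose transporter GLUT1 (r = 0.92), and *Cdkn2d*, an inhibitor of cyclin-dependent kinases (r = 0.90). The points share 8 arrays in 3 tissues and the dye orientations. The likeness lay in the order of the arrays more than in the size, since *Cry1* had log2 ratios of -0.08 and 0.04 in spleen and of -0.27, -0.42, -0.26 and -0.51 in liver, and *Slc2a1* had 0.05 and 0.09 in spleen.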

How the data were processed

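Control and LO RNA pools of spleen, small intestine and liver were hybridized on Agilent rat arrays with 2 dyes, as 8 arrays, and grouped by tissue and liver pool as labelled. Per the file headers the authors extracted the images with Agilent Feature Extraction 11.0.1.1 (design build rn4). The deposited log10 ratio of Cy5 over Cy3 was formed after the background was subtracted and the dyes were balanced by LOWESS, and its p-value is that of the error model of the software on a single array. The deposited signal intensity values are background-subtracted and dye-normalized, and median pixel intensities served normexp. A deposited value table holds the log10 ratio of the same signals and differs only where the ratio was listed as 1.

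The ratios were turned to log2 LO/control, and repeated probes averaged. Of 40979 probes, 30592 had a channel well above background on 2 or more arrays and were tested, and the 34 features flagged non-uniform were left out. The 2 arrays of a pair were averaged, and limma 3.58.1 (R 4.3.3) fitted the 4 averages with Benjamini-Hochberg adjustment and a threshold of 0.05. The residual degree of freedom came from the liver pools alone. Levels were fitted in the same way on the log2 control-channel signal after Aquantile normalization. p-values thus measure only the spread between pools. The fits were tested on simulated data, where the fit of the LO/control ratios made no call on the effects put in. A lack of calls for LO is therefore no sign of a lack of change. The number of arrays limits the precision. Tables were made with Python 3.11.15, pandas 2.3.3, numpy 2.4.6 and scipy 1.17.1, and figures with matplotlib 3.10.9.

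The genes, lists and tests were chosen with earlier results of these data known. The text names the 8 genes, up to 6 genes of the wider list per comparison with the largest difference past the threshold or, without calls, the largest mean of 1 direction on every array, the Eraf and beta-globin major features, the 2 genes of every other list with the highest spleen signal and the 5 genes of the most similar pattern. In the spleen, *Hba-a3*, *Hbb-b1*, *Hbe1* and *Slc11a2* were named after their values were seen. Some genes that this rule names are not reported here. A gene with several probes was read by the one of highest mean signal. Symbols came from RefSeq (GRCr8) by accession for 10760 probes. Same-numbered arrays share the dye orientation by the labels, and their deviations from the group mean correlated at 0.55 to 0.80 over 6 pairs of groups. Alternatives were normexp with loess, other scalings, no filter on dim probes, the LO channel, all pools, single arrays with and without a replicate block, leaving out each array number, single liver pools, and, chosen after seeing the data, ratios of exactly 1 as missing and counts on both spleen arrays.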

Additional observations from a re-analysis of the deposited data

Results flagged for a closer look

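Beta globin and *Epor* lay above 1 on both spleen arrays and below 1 on all 4 liver arrays. For beta globin the mean log2 LO/control was 0.29 in spleen and -0.15 in liver, and for *Epor* it was 0.15 and -0.13. The difference between the tissues was not tested, and the spleen ratios had chosen the genes.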

How the results depend on the processing

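The 8 genes were above 1 on both spleen arrays with normexp and with the deposited value table too, and on each array alone. Their median log2 ratio in the spleen was 0.36 with and without the replicate block (8 arrays) and 0.34 with normexp. Of the wider list 28 of 39 were above 1 on both arrays, 25 with normexp, and 32 to 34 on a single array. Without a replicate number the spleen median ran from 0.35 to 0.38, the small intestine median (0.23) from 0.21 to 0.29 and the liver median (-0.09) from -0.25 to -0.042. With normexp the small intestine median was 0.085. Liver pool 1 alone gave -0.15 and pool 2 alone -0.02. The small intestine and liver medians take in 3 and 4 genes not well above background there. *Epor* in small intestine turned from 0.052 to -0.032 with normexp and ran from -0.11 to 0.22 without a replicate number, and *Alas2* in liver (-0.09) ran from -0.36 to 0.19. The cause was not tested. No member passed for LO in small intestine or liver under any alternative, the replicate block included, where normexp called 34 and 157 probes in all and the replicate block called 1 and 0, against 0 and 0.

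The median level differences of the 8 genes take in *Rhag*, *Gata1* and *Sptb*, which were not well above background in liver or small intestine. Over the other 5 genes the median was 4.45 for spleen over liver and 6.21 for spleen over small intestine. Over the 8 genes it was 4.44 for spleen over liver, 5.73 for spleen over small intestine and 1.003 for liver over small intestine. With 75th percentile scaling the first became 4.04 and the last 1.54. With normexp they became 3.34, 3.46 and 0.24, and in the LO channel the first and last 5.02 and 0.54. Without a replicate number they ran from 4.27 to 4.70, from 5.56 to 5.95 and from 0.93 to 1.42. The members called were 7, 6 and 4, 3 of them in each of the first 2 through the spleen filter alone (*Rhag*, *Gata1* and *Sptb*), and with the replicate block, which counts repeat arrays of the same pools as replicates, 7, 8 and 6, where the calls over all probes rose from 9996, 3635 and 6756 to 18667, 12566 and 16387. All pools with a treatment term called 21464, 16034 and 19861 probes, normexp 7978 (spleen over small intestine) and 10528 (liver over small intestine), 75th percentile scaling 5467 for spleen over small intestine, and leaving out replicate 1 called 6351, 1273 and 3942, with 2266 for spleen over small intestine without replicate 2. In the liver and small intestine, signals not well above background limit *Rhag*, *Gata1* and *Sptb* to bounds.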
